A study of Mus musculus with 6 samples.

Results

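The genes described here encode the chains of collagen, the main structural protein of the matrix around muscle fibres. They were taken by symbol from the deposited expression table: 45 rows carry a symbol made of Col, a number, a and a number, and 44 of them were above 0 in at least 3 of the 6 libraries, of 23314 genes in all. Col4a3bp, which encodes the ceramide transfer protein, has such a symbol but is no collagen chain and is given apart, which leaves 43 chains. Of these, 11 are fibrillar, 8 belong to basement membranes, 8 are FACIT chains that decorate fibrils, 3 lie at muscle junctions, 5 form beaded filaments and 8 have other forms. The row that did not meet the rule was Col6a4, at 0.02515 FPKM in K15SKO 1 and listed at 0 elsewhere. Just inside it were Col10a1, above 0 in 3 libraries, and Col9a2, above 0 in 4.

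RNA sequencing was done on total RNA from quadriceps, the large thigh muscle, of mice aged 2 months. K15SKO mice carry Myogenin-Cre on 1 allele together with a floxed Klf15 gene on both (Myogenin-Cre/+;K15F/F), and MyoCre mice carry the same Cre without the floxed gene (Myogenin-Cre/+). Myogenin is switched on in differentiating muscle cells, so the Cre acts in muscle fibres and not in the fibroblasts, vessels or tendon cells of the same sample. Each group has 3 libraries, numbered 1 to 3 in the labels, and nothing in the labels says that each is another animal. The p-values therefore cover only the spread between libraries, which may be technical. Values are FPKM, fragments scaled by transcript length and library size, so that levels of different chains can be set side by side, and triplets of values run from library 1 to library 3 of a group.

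Every collagen molecule is a triple helix of 3 chains with glycine at regular intervals. Fibrillar chains (types I, II, III, V, XI, XXIV and XXVII) assemble into the banded fibrils that give the muscle its tensile strength, and in muscle they are made mostly by fibroblasts and fibro-adipogenic progenitors. Type IV forms the sheet-like network of basement membranes, type VI a fine filament that links that network to the fibrils, and type XXII sits where fibres join the tendon. More fibrillar collagen is deposited around fibres during regeneration and in fibrosis.

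Klf15, the gene deleted by the design, stood at 2.22, 21.7 and 5.32 FPKM in K15SKO, against 35.2, 28.4 and 30.5 FPKM in MyoCre. It was below every MyoCre library in all 3 K15SKO libraries, and the limma log2 difference was −2.06 (SE 0.66, limma adjusted p = 0.273). Summed FPKM of 8 muscle fibre genes (Ttn, Neb, Des, Pygm, Tnni2, Myl1, Mb and Ryr1) was 17529 to 30334 in K15SKO and 25319 to 29249 in MyoCre, with none at 0 in any group. Over the 11607 genes tested, K15SKO 3 correlated (Pearson, across genes, which are not independent replicates) at 0.975, 0.968 and 0.970 with MyoCre 1 to 3, and at 0.942 and 0.880 with K15SKO 1 and 2. Alb, the albumin gene of liver, was high in K15SKO 2, at 21.1, 2203 and 4.36 FPKM in K15SKO against 1.13, 0.298 and 0.311 FPKM in MyoCre. Relative depth, read from the steps between low values and resting on 14 to 49 genes a library, was 0.779, 1.57 and 0.901 of that of MyoCre 1 in K15SKO 1 to 3, and 1.08 and 1.33 in MyoCre 2 and 3. The absolute depth is unknown.

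To show what lies in front of chains that were high together, the 250 bases before the transcript start are given for Col3a1 and Col5a1. They are also given for Col15a1, whose group means were nearly equal. Col15a1 too was above every MyoCre library in K15SKO 1 and 2, and it was below all of them in K15SKO 3. It is thus no unchanged contrast to the other chains. The sequences, and the starts they are counted from, are from RefSeq on GRCm38.p6, and read 5′ to 3′ on the strand of the gene. Capitals mark 4 motifs, each searched on both strands. The first is CACCC, a core bound by Krüppel-like factors. The CCAAT box is the next, the GC box GGGCGG another, and the last is the TATAAA box.
Col3a1, chr1:45311288-45311537, plus strand: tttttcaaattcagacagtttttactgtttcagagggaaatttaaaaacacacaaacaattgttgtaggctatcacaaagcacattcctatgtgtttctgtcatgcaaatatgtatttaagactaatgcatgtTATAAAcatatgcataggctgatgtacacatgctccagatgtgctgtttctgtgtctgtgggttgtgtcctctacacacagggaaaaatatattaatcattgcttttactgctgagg
Col5a1, chr2:27886175-27886424, plus strand: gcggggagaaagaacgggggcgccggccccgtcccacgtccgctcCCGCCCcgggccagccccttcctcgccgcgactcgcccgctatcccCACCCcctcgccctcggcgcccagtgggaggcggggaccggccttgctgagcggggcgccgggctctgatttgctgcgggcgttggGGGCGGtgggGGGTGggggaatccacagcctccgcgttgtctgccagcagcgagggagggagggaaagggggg
Col15a1, chr4:47207762-47208011, plus strand: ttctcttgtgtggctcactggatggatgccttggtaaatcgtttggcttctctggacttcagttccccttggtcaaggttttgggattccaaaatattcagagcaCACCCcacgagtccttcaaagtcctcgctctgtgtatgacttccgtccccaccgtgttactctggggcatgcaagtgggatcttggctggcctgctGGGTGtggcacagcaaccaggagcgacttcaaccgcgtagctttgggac

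Col3a1 held a TATAAA box 117 bases before its transcript start and none of the other motifs. Col5a1 held 2 GGGCGG and 2 CACCC matches, and Col15a1 held 2 CACCC matches. The RefSeq starts of Col1a2 and Col6a1 lie inside the GENCODE genes, so their windows are not printed. Col1a2 held 1 CACCC, 1 CCAAT and 2 GGGCGG matches, and Col6a1 held no match. Among the chains, 34 had a RefSeq window, in 37 windows with alternative starts. CACCC was in 26 of the 37 windows (70.3%), against 52.0% of all 32851 windows of the same length. GGGCGG was in 21 (56.8%, against 32.7%), CCAAT in 12 (32.4%, against 33.8%) and TATAAA in 5 (13.5%, against 12.4%). The printed chains were all above every MyoCre library in K15SKO 1 and 2. Of them, the windows of Col5a1 and Col15a1 held CACCC and that of Col3a1 did not. Col12a1, Col14a1, Col1a1, Col22a1, Col26a1, Col2a1, Col4a3, Col5a2 and Col9a3 had no window in the table.

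The K15SKO libraries were set against the MyoCre libraries, from which they differ by design in the floxed Klf15 gene. Summed over the 43 chains, collagen FPKM was 350.0, 223 and 95.1 in K15SKO, against 109, 98.8 and 108 in MyoCre. K15SKO 1 and 2 were thus 3.33 and 2.12 times the MyoCre mean, and K15SKO 3 was 0.905 times that mean and below every MyoCre library. In bulk muscle, more cells of a type and more RNA per cell cannot be told apart. Tested with limma on log2(FPKM + 1), a scale that understates the change of low genes, 0 of the 17 chains with a mean of at least 1 FPKM passed an adjusted p of 0.05, where 0.0517% of all genes did. At an unadjusted p under 0.05, 1 chain was higher and 0 lower, where 8.43% of all genes were higher and 8.12% lower. The 17 chains had a median log2 difference of 0.60, against −0.02 over all 11607 genes tested. Of the 17, Col8a1 passed the filter only through its K15SKO values, and the median of the other 16 was 0.59.

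Without K15SKO 3, limma called 10 of the 17 chains higher and 0 lower, where 10.9% of all genes were called higher and 13.3% lower. The 10 were Col1a1, Col1a2, Col3a1, Col5a1, Col5a2, Col5a3, Col6a1, Col6a2, Col6a3 and Col8a1, which are 6 of 7 tested fibrillar chains, 3 of 3 tested beaded filament chains and the network chain Col8a1. Among the 16 chains other than Col8a1, 9 were called higher and 0 lower. None passed without K15SKO 1 or without K15SKO 2. K15SKO 3 had the lowest level of the K15SKO libraries for each of the 10 chains. Leaving it out therefore raises their difference and takes away much of their spread within K15SKO. Passing in that fit is thus no separate support for a difference between the groups. The same limit applies to genes given below as passing without K15SKO 3. Nothing in the labels sets K15SKO 3 apart, and its Klf15 level was 17.0% of the MyoCre mean, against 69.3% in K15SKO 2 and 7.08% in K15SKO 1. With a single K15SKO library set against the MyoCre libraries, where the lone library is assumed to vary like MyoCre, 11 chains were called higher for K15SKO 1, 11 for K15SKO 2 and 0 in either direction for K15SKO 3. All genes were called higher at 14.1% for K15SKO 1 and 9.67% for K15SKO 2, and in either direction at 0.207% for K15SKO 3. These single-library fits were chosen after the values were seen. Array weights scale each library by its scatter around the fit of its group, and were 0.596, 1.62 and 0.20003 for K15SKO 1 to 3. With them, 10 chains were called higher, where 10.7% of all genes were. This fit counts K15SKO 3 least, so it is close to leaving that library out and is no separate support.

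**Figure D1:**
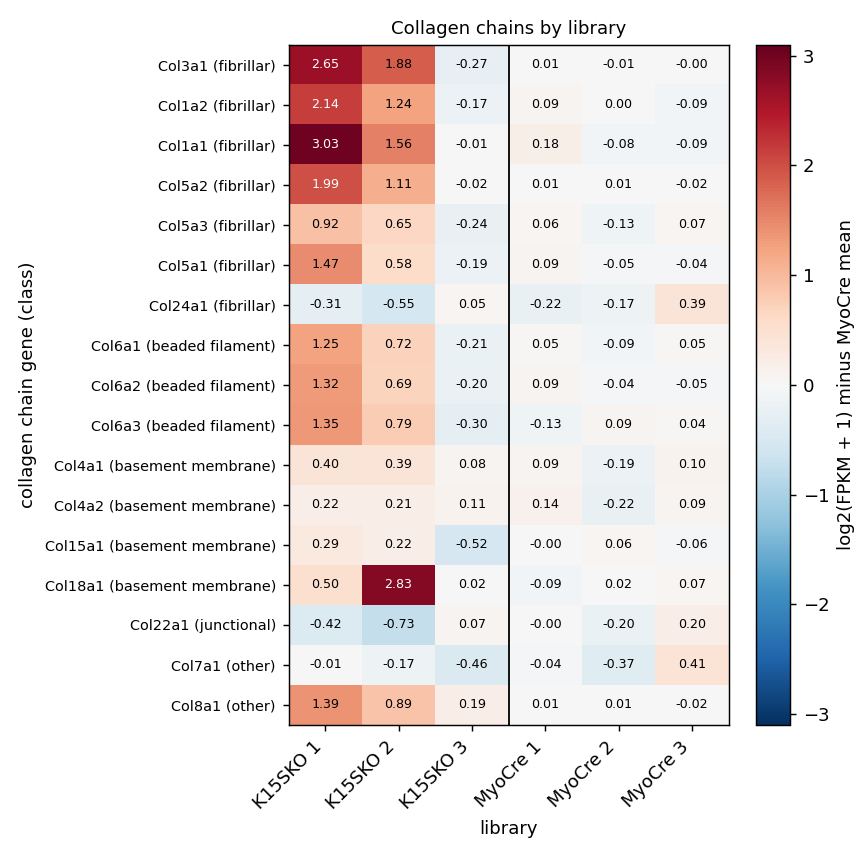
Levels of the 17 tested collagen chains in each library (columns) as log2(FPKM + 1) minus the MyoCre mean of that chain, with red for higher and blue for lower. The fibrillar chains other than Col24a1 and the beaded filament chains are red in K15SKO 1 and 2 and pale in K15SKO 3, and Col18a1 is dark in K15SKO 2 with a value of 2.83.

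Fibrillar chains held the highest levels and the widest spread among K15SKO libraries. Their summed FPKM was 240.3, 124 and 37.5 in K15SKO, against 44.7, 41.6 and 42.2 in MyoCre. Their median log2 difference was 1.03 over 7 tested chains, and the medians of K15SKO 1 to 3 against the MyoCre mean were 1.99, 1.11 and −0.17. As a share of all collagen FPKM, fibrillar chains made up 68.7%, 55.6% and 39.5% in K15SKO, against 41.0%, 42.1% and 39.2% in MyoCre.

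**Figure D2:**
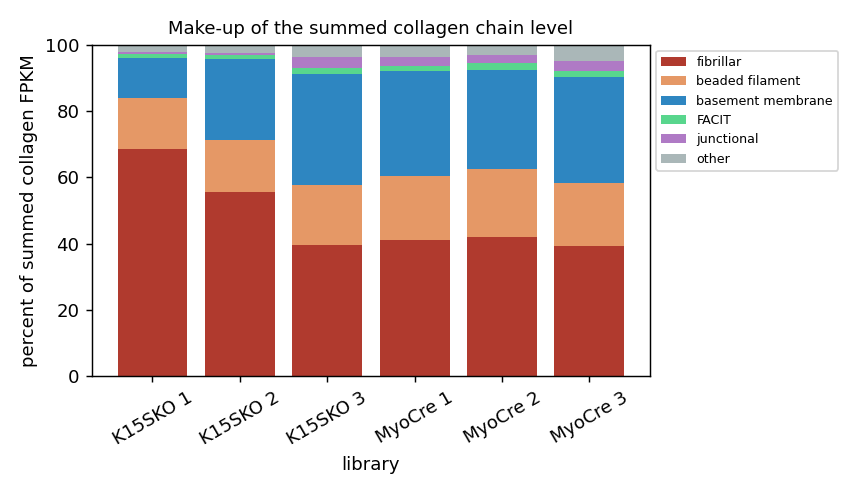
Share of the summed FPKM of 43 collagen chains held by each class (stacked bars, percent) in each library. Fibrillar chains hold 68.7% in K15SKO 1 and 55.6% in K15SKO 2, and 39.2% to 42.1% in K15SKO 3 and the MyoCre libraries, with the share of basement membrane chains lowest in K15SKO 1 at 11.9%.

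Col3a1 (chromosome 1, 45311538 to 45349706, GRCm38) encodes the chain of type III collagen, found in pliable tissues and early scars. Its level was 96.8, 56.5 and 12.0 FPKM in K15SKO, against 14.8, 14.5 and 14.6 FPKM in MyoCre. The MyoCre libraries differed by little (SD 0.149 FPKM, n = 3), K15SKO 1 and 2 stood 6.63 and 3.87 times above their mean, and K15SKO 3 was below all of them. The log2 difference was 1.42 (SE 0.69, limma adjusted p = 0.334), and 2.26 without K15SKO 3 (limma adjusted p = 0.00649).

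Col1a1 and Col1a2 encode the chains of type I collagen, the main fibril of tendon and of the sheaths around muscle, and sit on chromosome 11 from 94936224 to 94953042 and on chromosome 6 from 4504814 to 4541544. Col1a1 was at 55.6, 19.6 and 5.89 FPKM in K15SKO, against 6.85, 5.56 and 5.51 FPKM in MyoCre. Col1a2 was at 61.2, 32.3 and 11.5 FPKM in K15SKO, against 13.99, 13.1 and 12.2 FPKM in MyoCre. For both genes K15SKO 1 was highest, K15SKO 2 next, and K15SKO 3 within the MyoCre range for Col1a1 and below it for Col1a2. Their log2 differences were 1.53 (SE 0.70, limma adjusted p = 0.318) for Col1a1 and 1.07 (SE 0.54, limma adjusted p = 0.343) for Col1a2. Without K15SKO 3 they were 2.30 and 1.69, with limma adjusted p = 0.0199 and 0.0149.

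Type I collagen is usually built from a pair of Col1a1 chains and a single Col1a2 chain. The ratio of Col1a1 to Col1a2 FPKM was 0.910, 0.605 and 0.513 in K15SKO, against 0.489, 0.424 and 0.451 in MyoCre. The groups did not overlap, and p was 0.1 in a two-sided exact permutation test, the lowest value this design can give, or 0.4 adjusted over the 8 ratios computed. K15SKO 3 thus had the lowest ratio of its group and lay just above MyoCre 1.

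**Figure D3:**
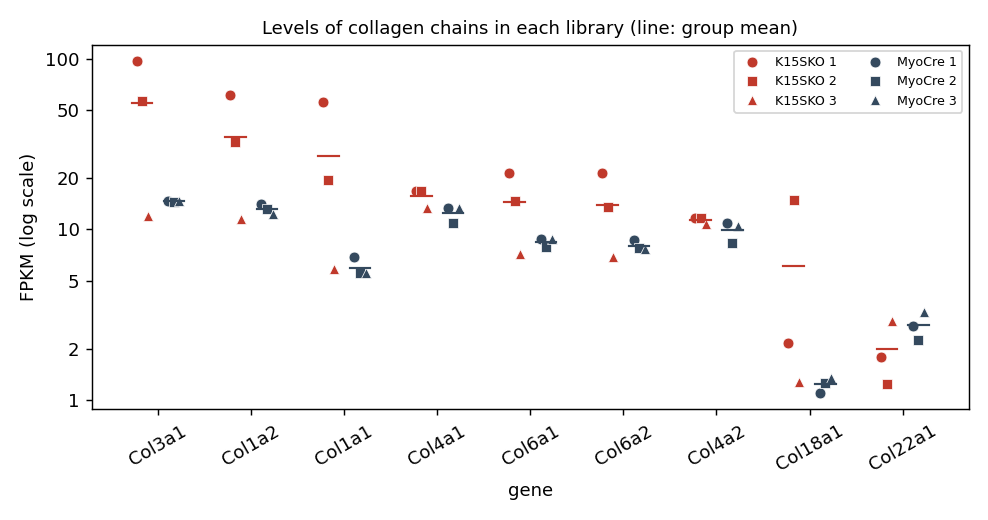
FPKM (log scale) of 9 collagen chains in each library, K15SKO in red left of MyoCre in dark blue, with a line at each group mean. For Col3a1, Col1a2, Col1a1, Col6a1 and Col6a2 the circle and square of K15SKO 1 and 2 lie above the MyoCre points and the triangle of K15SKO 3 among or below them, and Col18a1 reaches 14.9 FPKM in K15SKO 2 alone.

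Type V chains nucleate type I fibrils and set their width. Col5a2, on chromosome 1 from 45374321 to 45503282, was at 10.9, 5.46 and 1.95 FPKM in K15SKO, against 2.01, 2.00 and 1.94 FPKM in MyoCre. K15SKO 3 lay inside the narrow MyoCre range (log2 difference 1.03, SE 0.47, limma adjusted p = 0.316). Col5a1 and Col5a3 had the same order of libraries, with K15SKO 1, 2 and 3 at 3.57, 1.72 and 0.824 times the MyoCre mean for Col5a1 and 2.22, 1.78 and 0.791 times for Col5a3. Without K15SKO 3 the limma adjusted p was 0.0165 for Col5a2, 0.0429 for Col5a1 and 0.0164 for Col5a3. The Col5a1 to Col5a2 ratio was 0.722, 0.693 and 0.932 in K15SKO, against 1.195, 1.05 and 1.09 in MyoCre, with no overlap (exact two-sided permutation p = 0.1, 0.4 adjusted over the 8 ratios).

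Col5a2 and Col3a1 are neighbours, tail to tail with 24614 bases between them. Their ratio, Col5a2 over Col3a1, was 0.112, 0.0966 and 0.162 in K15SKO, against 0.136, 0.138 and 0.133 in MyoCre (exact two-sided permutation p = 0.5). The MyoCre ratios lay between those of K15SKO 2 and K15SKO 3.

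The fibrillar chain Col24a1 lay on the other side of MyoCre, at 0.852, 0.567 and 1.38 FPKM in K15SKO and at 0.962, 1.04 and 2.00 FPKM in MyoCre, with a log2 difference of −0.27 (SE 0.25, limma adjusted p = 0.547). The cartilage chains were low: Col2a1 and Col11a1 were under 0.14 FPKM in every library, and Col11a2 was at 0.422 to 0.593 FPKM in K15SKO and 0.564 to 0.713 FPKM in MyoCre. Col27a1 was highest in K15SKO 2, at 0.342, 0.681 and 0.207 FPKM in K15SKO against 0.235, 0.268 and 0.202 FPKM in MyoCre. These last 4 chains had a mean under 1 FPKM, and in the fit without a filter none passed, where 0.0129% of all genes did.

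Beaded filament chains followed the fibrillar chains at a smaller size. Their summed FPKM was 53.7, 35.3 and 17.2 in K15SKO, against 21.1, 20.0 and 20.8 in MyoCre, and their median log2 difference was 0.60 over 3 tested chains. Col6a1, on chromosome 10 from 76708792 to 76726168, was at 21.5, 14.6 and 7.22 FPKM in K15SKO, against 8.79, 7.87 and 8.80 FPKM in MyoCre (log2 difference 0.59, SE 0.35, limma adjusted p = 0.392). Col6a2, 85161 bases away on the same strand, was at 21.4, 13.5 and 6.85 FPKM in K15SKO, against 8.61, 7.74 and 7.70 FPKM in MyoCre (log2 difference 0.60, SE 0.36, limma adjusted p = 0.394). In both genes K15SKO 3 was below every MyoCre library and K15SKO 1 and 2 above.

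Col6a1, Col6a2 and Col6a3 chains form type VI collagen together, and mutations in them cause muscular dystrophy in people. The Col6a1 to Col6a2 ratio stayed near equal amounts in every library, at 1.005, 1.08 and 1.05 in K15SKO and 1.02, 1.02 and 1.14 in MyoCre. Col6a3 was lower, at 10.3, 6.65 and 2.60 FPKM in K15SKO and 3.04, 3.73 and 3.55 FPKM in MyoCre. Without K15SKO 3 the limma adjusted p was 0.0185 for Col6a1, 0.0228 for Col6a2 and 0.0185 for Col6a3. Col6a6, a chain with a mean under 1 FPKM, was at 0.423, 0.534 and 0.556 FPKM in K15SKO against 0.640, 0.634 and 0.713 FPKM in MyoCre, lower without overlap (limma adjusted p = 0.484 with no filter). Col6a5 was under 0.03 FPKM in every library.

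**Figure D4:**
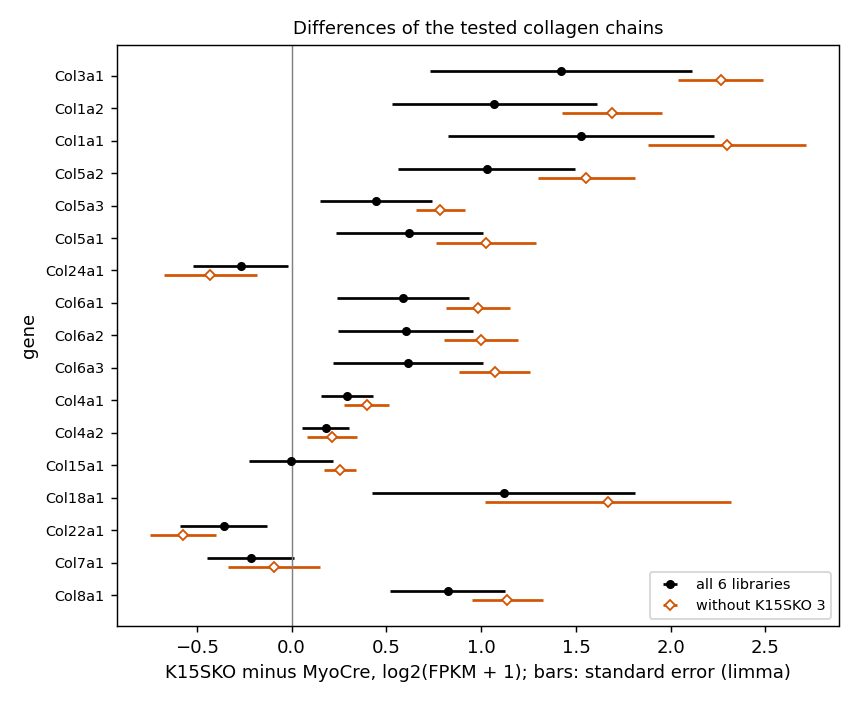
Log2 difference of K15SKO minus MyoCre for the 17 tested chains with limma standard errors, over all 6 libraries (black circles) and without K15SKO 3 (open diamonds). Without K15SKO 3 the fibrillar and beaded filament chains other than Col24a1 move right and their errors shrink, as for Col3a1 with 1.42 (SE 0.69) over all libraries and 2.26 (SE 0.22) without it.

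Basement membrane chains differed less. Their summed FPKM without Col18a1 was 39.4, 39.1 and 30.5 in K15SKO, against 33.4, 28.5 and 32.9 in MyoCre. Col4a1, on chromosome 8 from 11198423 to 11312826, was at 16.8, 16.7 and 13.3 FPKM in K15SKO, against 13.4, 10.8 and 13.4 FPKM in MyoCre. Col4a2, from 11312805 to 11449287, was at 11.6, 11.6 and 10.7 FPKM in K15SKO, against 10.9, 8.29 and 10.5 FPKM in MyoCre. K15SKO 1 and 2 were nearly equal in both genes, and K15SKO 3 lay within the MyoCre range. The log2 differences were 0.29 (SE 0.14, limma adjusted p = 0.325) for Col4a1 and 0.18 (SE 0.12, limma adjusted p = 0.434) for Col4a2. Neither passed without K15SKO 3 (limma adjusted p = 0.0624 and 0.260).

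Type IV genes lie in head-to-head pairs that share a promoter region, and a molecule of the common form holds 2 Col4a1 chains and 1 Col4a2 chain. Col4a1 and Col4a2 overlap by 22 bases at their starts, so reads there could not be assigned to either gene without strand. The Col4a1 to Col4a2 ratio was 1.45, 1.44 and 1.24 in K15SKO and 1.23, 1.31 and 1.27 in MyoCre (exact two-sided permutation p = 0.3). Col4a3 and Col4a4, with 71 bases between them, are chains of kidney and synaptic basement membranes and were low. Col4a3 was at 0.115, 0.148 and 0.437 FPKM in K15SKO and 0.254, 0.169 and 0.306 FPKM in MyoCre. Col4a4 was at 0.119, 0.196 and 0.208 FPKM in K15SKO and 0.257, 0.202 and 0.272 FPKM in MyoCre. The pair differed in K15SKO 3, where Col4a3 was above every MyoCre library and Col4a4 was not. Of the remaining pair, on chromosome X, Col4a5 was at 0.376, 0.586 and 0.375 FPKM in K15SKO against 0.318, 0.280 and 0.382 FPKM in MyoCre, and Col4a6 was under 0.09 FPKM throughout and listed at 0 in K15SKO 1.

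Col15a1 and Col18a1 encode collagens of the basement membrane zone whose ends can be cut off as small inhibitors of vessel growth. Col15a1 was at 10.4, 9.76 and 5.48 FPKM in K15SKO, against 8.25, 8.67 and 7.90 FPKM in MyoCre. The K15SKO libraries lay on both sides of the MyoCre range, and the log2 difference was −0.00 (SE 0.22, limma adjusted p = 0.996).

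Col18a1, on chromosome 10 from 77052178 to 77166548, was at 2.15, 14.9 and 1.27 FPKM in K15SKO, against 1.10, 1.26 and 1.34 FPKM in MyoCre. K15SKO 2 was 12.1 times the MyoCre mean, K15SKO 1 was 1.75 times and K15SKO 3 within the range. Its log2 difference was 1.12 (SE 0.69, limma adjusted p = 0.407), and 0.26 without K15SKO 2 (limma adjusted p = 0.533). Hepatocyte markers were also highest in K15SKO 2, and hepatocytes are known to make type XVIII collagen. The summed FPKM of 8 hepatocyte markers was 49.7, 4436 and 9.04 in K15SKO, against 2.48, 0.949 and 1.03 in MyoCre, with Cps1 listed at 0 in every MyoCre library. No other tested chain was highest in K15SKO 2. The part of liver transcripts in the Col18a1 level was not tested. RefSeq lists alternative starts for Col18a1, at 77166530 and 77113705 on the minus strand, which a level for the whole gene does not separate.

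FACIT chains lie on the surface of fibrils and link them to their surroundings. All 8 had a mean under 1 FPKM, with 1.99 FPKM (Col14a1 in K15SKO 1) the highest value in any library, and their summed FPKM was 4.95, 2.72 and 1.80 in K15SKO, against 1.77, 1.84 and 2.04 in MyoCre. Col14a1 was at 1.99, 0.971 and 0.444 FPKM in K15SKO and 0.639, 0.735 and 0.436 FPKM in MyoCre. Col16a1 was at 1.27, 0.505 and 0.293 FPKM in K15SKO and 0.328, 0.273 and 0.306 FPKM in MyoCre. Col12a1, a chain of tendon and of tissue under tension, was at 0.792, 0.255 and 0.201 FPKM in K15SKO and 0.187, 0.201 and 0.187 FPKM in MyoCre. These 3 chains had the order of libraries seen for fibrillar chains, with K15SKO 1 highest. Col9a2, Col9a3, Col19a1 and Col20a1 reached at most 0.719 FPKM. Col9a1, a chain of cartilage, ran the other way, at 0.0275, 0.0683 and 0.416 FPKM in K15SKO and 0.236, 0.137 and 0.347 FPKM in MyoCre. With no filter none of the 8 passed, with limma adjusted p from 0.535 to 0.874.

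Chains of muscle junctions were low. Col22a1, a FACIT by structure that anchors fibres at the tendon junction, was at 1.79, 1.25 and 2.92 FPKM in K15SKO, against 2.72, 2.24 and 3.28 FPKM in MyoCre. It was lower than every MyoCre library in K15SKO 1 and 2 and within their range in K15SKO 3 (log2 difference −0.36, SE 0.23, limma adjusted p = 0.418). Without K15SKO 3 the log2 difference was −0.57 (limma adjusted p = 0.0645). The sum over 8 tendon markers lay on the other side, at 67.9, 34.2 and 29.9 FPKM in K15SKO, against 25.4, 23.5 and 22.0 FPKM in MyoCre. By gene, 2 of the 8 were above every MyoCre library in both K15SKO 1 and 2 (25%, against 27.6% of genes above 0 in at least 3 libraries). In K15SKO 3, all 8 were above every MyoCre library, where 6971 of all 23314 genes were. The count for K15SKO 3 was chosen after the values were seen. Over the 5 tested markers, the medians of K15SKO 1 to 3 against the MyoCre mean were 0.86, 0.01 and 0.26 on the log2 scale. None of the tendon markers was at 0. Scx, a tendon transcription factor that falls outside the rule for named genes, was at 13.97, 7.57 and 3.54 FPKM in K15SKO, against 3.24, 2.66 and 2.498 FPKM in MyoCre.

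Col13a1, a transmembrane collagen of the neuromuscular junction, was low, at 0.106, 0.172 and 0.235 FPKM in K15SKO, against 0.0575, 0.0920 and 0.0723 FPKM in MyoCre. The groups did not overlap, K15SKO 3 was the highest, and with no filter the limma adjusted p was 0.431. Col25a1, which motor axons need to enter muscle in mice, was at 0.0287, 0.0199 and 0.0269 FPKM in K15SKO, against 0.00609, 0.0165 and 0.00929 FPKM in MyoCre, again without overlap (limma adjusted p = 0.574 with no filter). At such levels few reads stand behind a value, and how many is not known.

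Among the other chains, Col8a1, a short chain of vessel walls that forms hexagonal networks, had a mean of at least 1 FPKM only through its K15SKO values. It was at 3.40, 2.10 and 0.920 FPKM in K15SKO, against 0.691, 0.686 and 0.658 FPKM in MyoCre, higher without overlap (log2 difference 0.82, SE 0.30, limma adjusted p = 0.286). It was also 1 of 6 chains among the 43 whose groups did not overlap with K15SKO higher (13.95%, where 12.3% of genes above 0 in at least 3 libraries did so), while 1 chain, Col6a6, did so with K15SKO lower (2.33%, against 9.34%). The others on the higher side were Col11a1, Col12a1, Col13a1, Col25a1 and Col26a1, each with a mean under 1 FPKM. Col26a1 was at 0.702, 0.842 and 0.135 FPKM in K15SKO and 0.132, 0.127 and 0.0986 FPKM in MyoCre.

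Col7a1, the anchoring fibril chain of skin, was at 2.70, 2.32 and 1.72 FPKM in K15SKO, against 2.63, 1.89 and 3.98 FPKM in MyoCre, and the groups overlapped (log2 difference −0.21, SE 0.23, limma adjusted p = 0.598). Col23a1, a transmembrane chain, was highest in K15SKO 3, at 0.396, 0.213 and 0.531 FPKM in K15SKO and 0.263, 0.186 and 0.224 FPKM in MyoCre. Col8a2, Col10a1, Col17a1 and Col28a1 were under 0.26 FPKM in every library.

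Counted without a filter, 23 of the 43 chains were above every MyoCre library in both K15SKO 1 and K15SKO 2 (53.5%), where 27.6% of the 19183 genes above 0 in at least 3 libraries were. In K15SKO 3, 10 of the 43 chains were above every MyoCre library, 12 below and 21 within the range (48.8%, against 41.6% of those genes). Of all 23314 genes, 6971 were above every MyoCre library in K15SKO 3 and 4814 below. These counts were chosen after the values were seen. Col4a3bp, the gene that is no collagen chain, stood at 9.37, 10.4 and 17.3 FPKM in K15SKO, against 15.8, 15.8 and 16.4 FPKM in MyoCre (log2 difference −0.39, SE 0.22, limma adjusted p = 0.369). It was low where the fibrillar chains were high, and fell by 0.64 on the log2 scale without K15SKO 3 (limma adjusted p = 0.0116).

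Markers of other cells were read beside these results. All 8 macrophage markers were above every MyoCre library in K15SKO 1 and 2, where 27.6% of genes above 0 in at least 3 libraries were. This count, too, was chosen after the values were seen. Summed FPKM of the 8 macrophage markers was 338, 189 and 38.6 in K15SKO, against 50.8, 47.8 and 42.1 in MyoCre. For 7 genes of regenerating or denervated muscle, Myog and Myh3 among them, it was 76.4, 65.1 and 12.3 in K15SKO, against 6.77, 7.45 and 7.99 in MyoCre. Without K15SKO 3, 7 of 7 tested macrophage markers and 7 of 7 tested genes of the regeneration list passed on the higher side. Of all genes, 10.9% did. Values in the regeneration list went down to 0.0256 FPKM, so some of its genes may have met the filter only through their K15SKO values. For such genes the filter itself favours a call on the higher side, so the 7 of 7 of that list is no support by itself. Both lists were thus high in the K15SKO libraries where fibrillar chains were high. They parted in K15SKO 3, where fibrillar chains were not high. There 6 of the 7 regeneration genes and 0 of the 8 macrophage markers were above every MyoCre library. Of all 23314 genes, 6971 were. These counts for K15SKO 3 were chosen after the values were seen.

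The sum over fibroblast markers did not have that order, while single markers differed. Their summed FPKM over 8 genes was 352, 284 and 387 in K15SKO, against 504, 549.9 and 466 in MyoCre. Much of that sum was Gsn, a gene for an actin-severing protein, at 127, 101 and 175 FPKM in K15SKO against 257, 280.04 and 240.3 FPKM in MyoCre. In K15SKO 1 and 2, 2 of the 8 markers were above every MyoCre library (25%, against 27.6% of genes above 0 in at least 3 libraries). They were Mfap5 and Lum, which like Gsn were named after their values were seen. Mfap5, a microfibril protein, was at 26.5, 12.5 and 7.40 FPKM in K15SKO against 8.34, 9.41 and 6.53 FPKM in MyoCre. Lum, the proteoglycan lumican, was at 25.1, 25.1 and 8.31 FPKM in K15SKO against 9.60, 15.04 and 10.1 FPKM in MyoCre. Without K15SKO 3, Lum passed on the higher side (log2 difference 1.08, limma adjusted p = 0.0198), the only 1 of the 8 markers to do so. On the lower side 3 of the 8 passed, where 10.9% of all genes passed higher and 13.3% lower. Pdgfra, the receptor that defines fibro-adipogenic progenitors, was at 2.75, 2.84 and 2.32 FPKM in K15SKO, against 2.90, 2.87 and 2.89 FPKM in MyoCre, lower without overlap (log2 difference −0.10, SE 0.11, limma adjusted p = 0.606). Adipocyte markers were low in all K15SKO libraries, with 6 genes summing to 53.2, 29.4 and 34.1 FPKM in K15SKO against 201, 479 and 171 FPKM in MyoCre. No marker in these 4 lists was at 0 in any whole group. Over 7 endothelial genes the sum was 30.8, 35.5 and 61.2 FPKM in K15SKO against 55.0, 43.6 and 52.6 FPKM in MyoCre, over 7 smooth muscle and pericyte genes 75.0, 73.4 and 118 FPKM in K15SKO, against 90.5, 84.0 and 81.9 FPKM in MyoCre, and over 7 Schwann cell genes 21.5, 17.5 and 45.1 FPKM in K15SKO, against 33.7, 39.2 and 30.6 FPKM in MyoCre. Of 5 cartilage and bone genes in the table, the sum was under 1 FPKM in every library, and Sp7 and Ibsp were listed at 0 in all MyoCre libraries. The part of any of these cell types in the collagen levels was not tested.

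**Figure D5:**
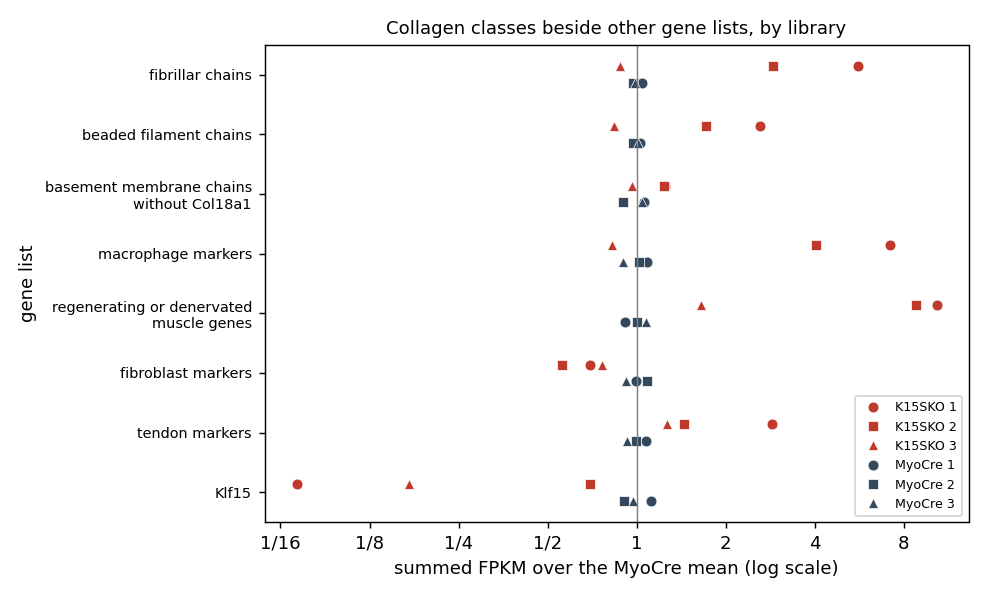
Summed FPKM of collagen classes, of other gene lists and of Klf15 in each library, divided by the MyoCre mean (log scale), with K15SKO in red above MyoCre in dark blue. Fibrillar chains, macrophage markers and genes of regenerating or denervated muscle lie to the right in K15SKO 1 and 2, fibroblast markers lie to the left in all 3 K15SKO libraries, and Klf15 is lowest in K15SKO 1 and closest to MyoCre in K15SKO 2.

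Collagen chains are hydroxylated, folded and trimmed before they are crosslinked, and 75 genes of these steps, of partners, receptors and inducers were also read. Of the 60 tested, 0 passed over all genes. At an unadjusted p under 0.05, 4 of the 60 were higher and 7 lower, where 8.43% of all genes were higher and 8.12% lower. The median log2 difference of the 60 was 0.09. Of all 75 genes, 10 (13.3%) were higher and 7 (9.33%) lower without overlap. That is near the share among genes above 0 in at least 3 libraries, 12.3% higher and 9.34% lower. Without K15SKO 3, 11 of the 60 passed higher (18.3%) and 4 lower, where 10.9% of all genes passed higher and 13.3% lower. The 11 include Postn, which met the filter only through its K15SKO values. Dcn, Lum and Fmod are in this list and also among the fibroblast or tendon markers.

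Enzymes that modify the chains had a median log2 difference of 0.03 over 10 tested hydroxylase and glycosyltransferase genes. P4ha1, the catalytic subunit of prolyl 4-hydroxylase, was at 12.6, 11.9 and 15.1 FPKM in K15SKO against 17.2, 18.0 and 24.2 FPKM in MyoCre, lower without overlap (limma adjusted p = 0.272). P4hb, its other subunit and a general protein disulfide isomerase, was at 94.5, 122 and 72.6 FPKM in K15SKO against 69.8, 66.3 and 73.8 FPKM in MyoCre (limma adjusted p = 0.318). Without K15SKO 3, P4ha1 passed on the lower side (log2 difference −0.64, limma adjusted p = 0.0420) and P4hb on the higher side (log2 difference 0.61, limma adjusted p = 0.0289). The subunits of this enzyme thus stood on opposite sides of MyoCre in K15SKO 1 and 2. P4hb was highest in K15SKO 2, the library with the highest hepatocyte markers, and its log2 difference was 0.24 without K15SKO 2. The part of liver transcripts in its level was not tested. The prolyl 3-hydroxylases P3h3 and P3h1 had limma adjusted p of 0.423 and 0.440.

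Among folding and secretion genes, Ppib, a prolyl isomerase of the endoplasmic reticulum, was at 35.6, 48.0 and 21.5 FPKM in K15SKO against 18.0, 20.3 and 18.7 FPKM in MyoCre, higher without overlap (limma adjusted p = 0.281). Fkbp10, a chaperone of type I collagen, was at 4.90, 2.27 and 1.199 FPKM in K15SKO against 1.28, 1.39 and 1.42 FPKM in MyoCre (limma adjusted p = 0.406). Tmem38b, an ion channel of the endoplasmic reticulum, and Sec23a, a coat protein of secretory vesicles, had log2 differences of 0.47 and −0.29. Ppib and Tmem38b passed without K15SKO 3, with limma adjusted p = 0.0114 and 0.0150. Ppib, like P4hb, was highest in K15SKO 2, and its log2 difference was 0.52 without K15SKO 2. The part of liver transcripts in the Ppib level was not tested. Serpinh1, the collagen chaperone HSP47, falls outside the rule for named genes and was looked up after the values were seen. It was at 46.4, 22.1 and 20.1 FPKM in K15SKO and 23.5, 25.2 and 29.9 FPKM in MyoCre, so that K15SKO 2 lay below every MyoCre library although its fibrillar chains were high.

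Of the propeptide processing genes, Bmp1, the protease that trims the carboxyl ends of fibrillar chains, was at 6.66, 6.31 and 4.50 FPKM in K15SKO against 4.64, 4.11 and 4.63 FPKM in MyoCre (limma adjusted p = 0.329). Pcolce2, an enhancer of that protease, was lower without overlap, at 0.954, 0.479 and 0.953 FPKM in K15SKO against 1.48, 1.45 and 1.2 FPKM in MyoCre (limma adjusted p = 0.311). Pcolce, another enhancer, and Adamts2, which trims the amino ends, had log2 differences of 0.32 and 0.22. Of the lysyl oxidases, which crosslink chains, Loxl2, Lox and Loxl1 had K15SKO 1 highest. Loxl2 was at 4.69, 2.27 and 0.908 FPKM in K15SKO against 1.15, 0.991 and 0.875 FPKM in MyoCre (limma adjusted p = 0.357). Lox was at 5.54, 2.54 and 1.36 FPKM in K15SKO, against 1.98, 1.55 and 1.25 FPKM in MyoCre, and Loxl1 at 8.07, 4.57 and 1.46 FPKM in K15SKO, against 3.01, 3.71 and 3.41 FPKM in MyoCre. Bmp1 and Loxl2 passed without K15SKO 3, with limma adjusted p = 0.0254 and 0.0329.

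Proteins that sit on fibrils lay on both sides of MyoCre. Bgn, the proteoglycan biglycan, was at 86.4, 48.7 and 14.5 FPKM in K15SKO against 14.2, 14.4 and 10.8 FPKM in MyoCre (log2 difference 1.53, limma adjusted p = 0.291). Dcn, its relative decorin, was lower without overlap at 89.6, 97.7 and 121 FPKM in K15SKO against 147, 149 and 131 FPKM in MyoCre (log2 difference −0.48, limma adjusted p = 0.272). Prelp was also lower without overlap, at 5.65, 4.56 and 5.0 FPKM in K15SKO, against 9.02, 9.55 and 6.10 FPKM in MyoCre, and Ogn, a small proteoglycan, had a log2 difference of −0.37. Postn, periostin of injured tissue, and Fn1, fibronectin, were chosen after their values were seen. Postn was at 57.6, 16.9 and 0.772 FPKM in K15SKO against 0.640, 1.17 and 0.745 FPKM in MyoCre, and Fn1 at 19.7, 17.9 and 3.78 FPKM in K15SKO, against 3.91, 4.20 and 3.98 FPKM in MyoCre. Without K15SKO 3, Postn and Fn1 passed on the higher side (limma adjusted p = 0.00901 for Postn and 0.000851 for Fn1). Postn, with a MyoCre mean under 1 FPKM, met the filter only through its K15SKO values. Bgn also passed on the higher side (limma adjusted p = 0.00901), and Dcn passed on the lower side (limma adjusted p = 0.0174). K15SKO 3 lay within the MyoCre range for Postn and below it for Fn1.

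Partners of the basement membrane had a median log2 difference of 0.02 over 8 genes. Nid2, a nidogen that links type IV collagen to laminin, was higher without overlap at 2.61, 2.26 and 1.79 FPKM in K15SKO against 1.62, 1.42 and 1.51 FPKM in MyoCre (limma adjusted p = 0.301). Agrn, agrin of the neuromuscular junction, was at 2.29, 2.25 and 2.97 FPKM in K15SKO, against 2.06, 1.89 and 2.18 FPKM in MyoCre, also without overlap (limma adjusted p = 0.424). Smoc2 and Smoc1 had log2 differences of −0.39 and −0.44, and Smoc2 passed without K15SKO 3 (−0.58, limma adjusted p = 0.0163). Of the collagen receptors, Itgb1, the integrin beta 1 chain, was at 86.5, 76.9 and 55.5 FPKM in K15SKO against 52.1, 55.9 and 57.7 FPKM in MyoCre (limma adjusted p = 0.330, and 0.0191 without K15SKO 3). Itga1, its partner in binding type IV collagen, was at 0.690, 0.986 and 1.40 FPKM in K15SKO, against 1.70, 1.36 and 1.58 FPKM in MyoCre, and Mrc2, which takes up collagen, and Ddr2, a collagen-binding kinase, had log2 differences of 0.44 and −0.06.

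Inducers of collagen genes had a median log2 difference of −0.22 over 9 genes. Smad3, which carries TGF-beta signals to collagen promoters, was lower without overlap at 16.1, 17.2 and 17.7 FPKM in K15SKO against 25.1, 25.5 and 29.3 FPKM in MyoCre (log2 difference −0.62, limma adjusted p = 0.229). Tgfb2, a ligand, was at 4.31, 4.82 and 4.68 FPKM in K15SKO, against 5.62, 6.01 and 6.38 FPKM in MyoCre, and Tgfbr1, a receptor, at 6.71, 8.14 and 8.82 FPKM in K15SKO, against 9.30, 11 and 10.96 FPKM in MyoCre, both lower without overlap. The ligand Tgfb1, named after its values were seen, was at 3.14, 2.31 and 1.75 FPKM in K15SKO, against 1.75, 1.67 and 1.43 FPKM in MyoCre (limma adjusted p = 0.336). Of the 9 genes, 2 were higher (22.2%) and 3 lower (33.3%) without overlap. Among genes above 0 in at least 3 libraries, 12.3% were higher and 9.34% lower without overlap. Smad3 passed without K15SKO 3, with a log2 difference of −0.65 (limma adjusted p = 0.0157).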

How the data were processed

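The authors deposited FPKM values for 23314 genes in 6 quadriceps libraries, and the unit is read from the tools and the values, since the table names none. STAR, Cufflinks, Cuffdiff and the mm10 build are named per the submitters' processing notes, with no versions, and the strandedness of the libraries is not stated. FPKM keeps no counts, so counting error cannot be weighed, and an exact 0 can be a failed estimate. The design text speaks of 4 mice, and 3 libraries a group were analysed here. Columns were matched by the sample descriptions, and 0 belonged to no sample. Coordinates are from GENCODE M21 on GRCm38, which is mm10, where all 45 collagen IDs matched.

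The main test was limma 3.58.1 (R 4.3.3) on log2(FPKM + 1) for the 11607 genes whose mean reached 1 FPKM. It was two-sided, let the prior variance follow the mean level, and was adjusted by Benjamini-Hochberg over all genes at a threshold of 0.05. Fits were tested on simulated data. Ratios of chains were tested with exact permutation tests on the log2 ratio. Tables and plots were made with Python 3.11.15, pandas 2.3.3, scipy 1.17.1 and matplotlib 3.10.9. The members, classes and lists were chosen with earlier results of these data known. Values per library are given for chains with a mean of at least 10 FPKM, the 2 with the smallest p per class and the junctional chains, and for up to 4 genes per subgroup of the collagen pathway list. Of these, 1 gene is not reported here. Values of other chains are given as ranges or were chosen after they were seen.

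The choices varied one at a time were the pseudocount (0.1, 0.5), the filter (none, or a mean of 5 FPKM), the scaling (median of ratios, quantiles), the variance prior (no trend, robust), weights per library, a replicate block and each library removed. After the data were seen, genes at 0 throughout a group were also left out, and each K15SKO library was set alone against MyoCre.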

Additional observations from a re-analysis of the deposited data

How the results depend on the processing

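Of 20 alternatives, 16 called 0 collagen chains, as the test over all libraries did. Array weights called 10, leaving out K15SKO 3 called 10, and K15SKO 1 alone and K15SKO 2 alone called 11 each, all higher. Array weights gave K15SKO 3 the lowest weight of the 6 libraries (0.20003). Leaving out each library in turn gave 0 to 10 chains, 0 to 15 genes of the collagen pathway list and 3 to 2802 genes in all, each highest without K15SKO 3 and with 3 genes without MyoCre 1 or MyoCre 2. Pathway genes called numbered 0 over all libraries, 13 with array weights, 29 with K15SKO 1 alone and 12 with K15SKO 2 alone. Over all genes the count was 6, and 3 with no filter, 2398 with array weights, 3 with the replicate block, 0 without genes at 0 in a whole group (limma, against 1930 at an unadjusted p under 0.05), 2879 with K15SKO 1 alone, 1755 with K15SKO 2 alone and 24 with K15SKO 3 alone. Klf15 passed with K15SKO 1 alone (−3.32) and K15SKO 3 alone (−2.35). With K15SKO 3 alone the log2 difference changed sign for Col1a1 (−0.012), Col1a2 (−0.17), Col3a1 (−0.27), Col5a1 (−0.19), Col5a2 (−0.018), Col5a3 (−0.24), Col6a1 (−0.21), Col6a2 (−0.20), Col6a3 (−0.30), Col22a1 (0.0745) and Col24a1 (0.05). The cause of these shifts was not tested. Libraries with the same number are not known to be paired. The deviations of same-numbered libraries from their group means correlated at 0.00240, 0.0851 and 0.0942 over 11607 genes, and with the replicate block 0 collagen chains passed. Each K15SKO library correlated best with its own number, while MyoCre 1 did not. Every scaling kept the median of all genes within 0.1 of 0. Low chains rest on few reads, and the depth behind them is unknown.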
